A study of Mus musculus with 15 samples.

Results

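The hippocampus of exercised SAMP8 mice was set against that of sedentary SAMR1 mice, with 5 arrays in each group, which made 10 of the 15 arrays of the series. The arrays were chosen by their titles and no measured value entered the choice. SAMP8 is a senescence-prone mouse line used as a model of early memory loss, and SAMR1 is a resistant line kept as its comparison. All mice were adult females, and the whole hippocampus was used. The exercised SAMP8 mice had trained, while the SAMR1 mice and a further group of 5 SAMP8 arrays were sedentary. The labels give neither age nor the kind or length of the training. They number biological replicates without saying that each is 1 animal, so the p-values may not describe the spread between single animals. No exercised SAMR1 group was analysed here, so in this comparison line and training cannot be told apart. Values of the sedentary SAMP8 arrays are therefore given beside the main results. They share the SAMR1 arrays with it, so a likeness of both differences from SAMR1 is no separate evidence.

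Values were intensities on a log2 scale for 16401 named genes, each read by 1 probe, and a difference of 1 is 2-fold. The median standard error of a difference was 0.12. A gene was called at an adjusted p under 0.05 in limma. The 25 measured markers of hippocampal subfields had an array mean of 11.02 to 11.22 in exercised SAMP8 and 10.92 to 11.15 in SAMR1, and none lay at the floor on all arrays. The SAMR1 array of replicate 5 stood apart in 14 striatal markers, with a mean of 9.82 against 8.49 to 8.59 in exercised SAMP8 and 8.37 to 8.50 on the other SAMR1 arrays. None of the 14 was called. Without that array 545 genes were called in place of 590. In whole tissue, fewer cells of a type and less RNA per cell cannot be told apart.

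The hippocampus holds neurons of several subfields, together with glia, vessels and the myelin of passing fibres. Resting microglia survey this tissue and present little antigen, and interferon, released on infection or damage, switches on a common set of antiviral genes in most cells. Antigen is presented by class I molecules on most cells and by class II molecules on specialised ones, and the myelin sheath is made by oligodendrocytes from a small set of abundant proteins.

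After training, 590 of the 16401 genes (3.6%) differed from SAMR1, 287 higher (1.75%) and 303 lower (1.85%) in exercised SAMP8. A change of 2-fold or more was seen for 79 genes, 34 of them upward and 45 downward, and the median size of a called difference was 0.59. Sedentary SAMP8 differed from SAMR1 in 431 genes (2.63%), 240 higher (1.46%) and 191 lower (1.16%), and in 648 when the same-numbered sedentary arrays, which deviated together, were treated as pairs. Family counts and adjusted p values of sedentary SAMP8 in the following paragraphs are from the fit without pairs. Exercised and sedentary SAMP8 did not differ in any called gene, with 573 genes at an unadjusted p under 0.05 where 820 would fall by chance. Leaving out exercised replicate 3 gave 1 call in that contrast. Over the 590 genes the median size of the difference between exercised and sedentary SAMP8 was 0.11, and that between sedentary SAMP8 and SAMR1 was 0.52. Since these genes were selected on the exercised arrays, those medians are a description. The median difference over all genes was 0.02. The exercised and SAMR1 arrays of 803 genes (4.9%) did not overlap, called or not. Tested probe by probe, 1056 of 27968 (3.78%) differed in exercised SAMP8 and 685 (2.45%) in sedentary SAMP8. Among 6511 array features without a single gene symbol, 115 (1.77%) differed in exercised SAMP8.

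**Figure D1:**
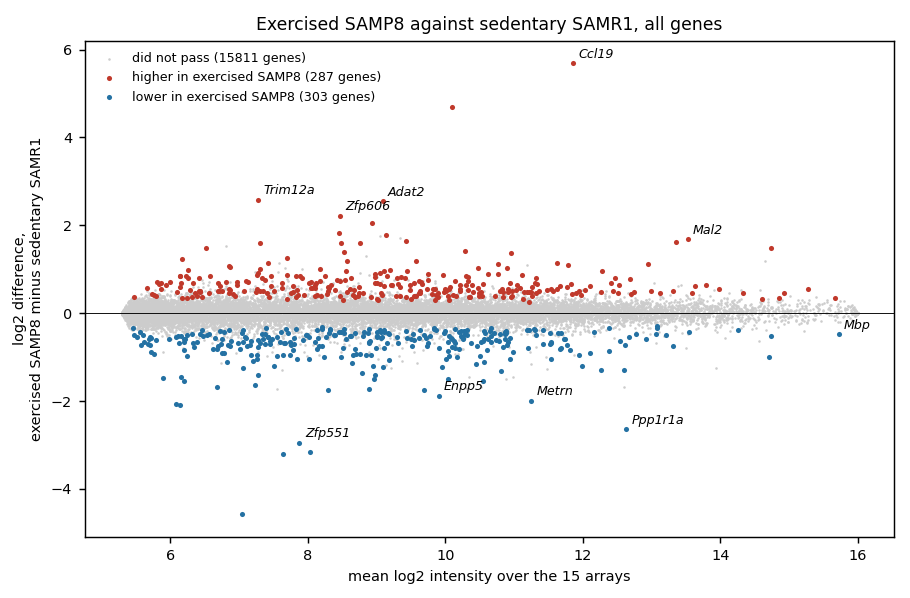
Difference in log2 intensity between exercised SAMP8 and sedentary SAMR1 (vertical axis) against mean log2 intensity over 15 arrays (horizontal axis), with 1 point per gene. The 287 genes called higher are red and the 303 called lower are blue, and Ccl19 lies highest at 5.69.

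The gene farthest from SAMR1 was Ccl19, a chemokine that draws T cells and dendritic cells through the receptor CCR7. Its log2 intensity was 13.96, 13.90, 13.77, 13.78 and 13.51 on the exercised SAMP8 arrays, 13.74, 13.59, 13.63, 13.77 and 13.78 on the sedentary SAMP8 arrays, and 7.75, 7.39, 9.09, 8.68 and 7.57 on the SAMR1 arrays. All SAMP8 arrays, trained or not, lay far above all SAMR1 arrays. The difference of exercised SAMP8 from SAMR1 was 5.69 ± 0.25 (SE, n = 5 per group, adjusted p = 3.69e-10), or 51.6-fold, and both Ccl19 probes were called. Of the 5 nearest tested genes on each side in the RefSeq gene order, 5 were called, all higher, and the rest did not pass. Those called were Gm3893, listed as a transcribed pseudogene (4.70 ± 0.18), the dynactin subunit Dctn3 (1.48 ± 0.09) and the skin-homing chemokine Ccl27a (1.12 ± 0.09). With them were Rpp25l (0.96 ± 0.12) and the ATPase Vcp (0.64 ± 0.08). RefSeq also lists pseudogene copies of Ccl19 and a second Ccl27 gene, so these probe readings cannot be given to 1 copy.

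Several of the largest increases were in enzymes that modify RNA. Adat2, the catalytic subunit of the deaminase that makes inosine in tRNA anticodons, read 9.97, 9.96, 9.84, 10.04 and 10.03 in exercised SAMP8, 9.59, 9.89, 9.90, 10.05 and 9.97 in sedentary SAMP8, and 7.39, 7.26, 7.59, 7.60 and 7.26 in SAMR1. Every SAMP8 array, trained or not, lay above every SAMR1 array, and the difference of exercised SAMP8 from SAMR1 was 2.55 ± 0.10 (5.85-fold, adjusted p = 5.87e-11). Rpusd4, a mitochondrial pseudouridine synthase (1.79 ± 0.10), and Fbll1, a relative of the RNA methyltransferase fibrillarin (1.62 ± 0.08), were also higher. Of 97 measured RNA modification enzymes, 8 were called (8.25%), 7 higher and 1 lower, while the family's median difference was 0.02. The other called members were Mettl24 (1.14 ± 0.19), Dph7, of the diphthamide pathway (0.81 ± 0.11), Qtrt1, a queuosine transferase subunit (0.51 ± 0.11), and Nsun6, a cytosine methyltransferase (0.36 ± 0.08), all higher, and the mitochondrial tRNA methyltransferase Trmt61b (-0.92 ± 0.16). Diphthamide is a modification of a protein, so Dph7 enters these counts as a list member without being an enzyme of RNA. All 8 stayed called without any 1 array. Nsun6 was no longer called when its 5 probes, which ran from -0.44 to 0.36, were averaged (0.01, adjusted p = 0.961). Mettl24 in sedentary SAMP8 lay between the other groups. It read 8.24, 7.59, 8.34, 8.05 and 7.77 in exercised SAMP8, 7.34, 7.24, 7.15, 7.06 and 8.13 in sedentary SAMP8, and 6.80, 6.78, 7.03, 7.13 and 6.55 in SAMR1. It was not called between sedentary SAMP8 and SAMR1 (0.53, adjusted p = 0.237), nor between exercised and sedentary SAMP8 (0.62 ± 0.19, adjusted p = 1.0).

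Other large increases were in single genes of varied function. Slc2a5, a fructose transporter and a microglial marker in mouse brain, read 9.63, 9.72, 9.64, 9.32 and 9.67 in exercised SAMP8, 9.82, 9.64, 9.63, 9.60 and 9.71 in sedentary SAMP8, and 8.22, 7.45, 7.29, 7.06 and 7.71 in SAMR1 (2.05 ± 0.16, adjusted p = 4.77e-07). Mal2, a membrane protein of vesicle transport, read 14.09, 13.98, 14.05, 14.45 and 14.16 in exercised SAMP8, 13.86, 14.01, 13.73, 14.08 and 14.18 in sedentary SAMP8, and 12.60, 12.46, 12.31, 12.62 and 12.31 in SAMR1 (1.69 ± 0.11). In neither gene did a SAMP8 array overlap with SAMR1. Smaller increases were found in the kinase Uhmk1 (1.41 ± 0.10), Spink8, a marker of hippocampal pyramidal cells (1.38 ± 0.13), the histone gene H4c9 (1.18 ± 0.11), the splicing factor Wbp11 (1.13 ± 0.12), Tmem167b (1.12 ± 0.10) and the ciliary dynein regulator Drc1 (1.10 ± 0.13). Spink8 was the 1 of these whose 95% interval for exercised minus sedentary SAMP8 left out 0 (0.30, from 0.02 to 0.58), an interval not adjusted for the number of genes.

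In the other direction the largest well-expressed difference was in Ppp1r1a, an inhibitor of protein phosphatase 1 that is switched on by protein kinase A. Its log2 intensity was 11.88, 11.59, 12.01, 11.90 and 11.54 in exercised SAMP8, 11.80, 11.70, 12.07, 11.07 and 11.76 in sedentary SAMP8, and 14.55, 14.32, 14.40, 14.10 and 14.75 in SAMR1. Both SAMP8 groups lay below every SAMR1 array. The difference was -2.64 ± 0.17 (6.23-fold lower, adjusted p = 2.79e-08), and its 2 probes gave -2.64 and -2.58. Of the 37 protein phosphatase 1 subunits and regulators matched by symbol, 1 other was called, the glycogen-targeting subunit Ppp1r3d, which was higher (0.96 ± 0.11). The called share of that list was 5.41%. A further glycogen-targeting subunit outside that list, Ppp1r3g, was lower (-1.23 ± 0.14).

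Enpp5, a membrane-bound member of the ectonucleotide pyrophosphatase family, read 9.33, 9.26, 9.15, 9.20 and 9.50 in exercised SAMP8, 9.08, 9.58, 9.16, 9.16 and 9.30 in sedentary SAMP8, and 11.45, 11.30, 10.85, 11.32 and 10.90 in SAMR1 (-1.88 ± 0.13, adjusted p = 7e-08). Entpd2, an ectonucleotidase that removes phosphate from extracellular ATP, read 9.93, 10.16, 10.28, 9.93 and 10.54 in exercised SAMP8, 10.28, 10.23, 10.22, 10.11 and 10.30 in sedentary SAMP8, and 11.37, 11.16, 11.51, 11.04 and 11.30 in SAMR1 (-1.11 ± 0.12, adjusted p = 1.44e-05). These were the 2 called genes of 14 nucleotide and ectonucleotide enzymes (14.3%), both lower and both called under every alternative run. The transcription factor Usf1 ran from 8.43 to 8.64 in exercised SAMP8 and from 9.81 to 10.26 in SAMR1 (-1.50 ± 0.09).

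Some mitochondrial genes were lower too. Mcur1, a regulator of calcium uptake by the organelle, read 8.54, 8.95, 9.28, 9.01 and 9.25 in exercised SAMP8, 9.72, 9.46, 8.58, 9.36 and 9.42 in sedentary SAMP8, and 10.98, 10.71, 10.69, 10.58 and 10.87 in SAMR1 (-1.76 ± 0.18, and -1.16 when its 2 probes were averaged). Mrpl41, of the mitochondrial ribosome, differed by -1.21 ± 0.09, and Auh, an enzyme of leucine breakdown, by -1.29 ± 0.10, or -0.50 when its 3 probes were averaged. Respiratory chain subunits as a family stayed near SAMR1: of 80 members Ndufa11 (-0.80 ± 0.10) and Ndufa12 (-0.42 ± 0.09) were lower and 78 did not pass, with a family median of -0.04. Ndufa12 was not called when its 3 probes were averaged (-0.02, adjusted p = 0.958), or without exercised replicate 2 or SAMR1 replicate 3 (adjusted p up to 0.0524). The called share was 2.5% for the respiratory chain and 3.85% for 78 mitochondrial ribosomal proteins, beside 3.6% over all genes. Of the ribosomal proteins Mrpl14 was higher (0.45 ± 0.08) and Mrpl41 and Mrpl35 (-0.40 ± 0.10) were lower. The 3 Mrpl35 probes ran from -0.40 to 2.93, all called, and their average was 1.33 (adjusted p = 7.64e-10), so that gene has no settled direction here.

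Metrn, which encodes the glial neurotrophic factor meteorin, was the most variable of the leading genes. It read 9.59, 9.41, 11.63, 10.61 and 9.75 in exercised SAMP8, 11.54, 12.18, 9.41, 11.79 and 11.82 in sedentary SAMP8, and 12.70, 12.28, 11.75, 12.51 and 11.75 in SAMR1. Exercised replicate 3 came near the lowest SAMR1 array, and sedentary SAMP8 replicate 3 lay among the low exercised arrays. In Mcur1, Laptm5 and Kat6a too, replicate 3 was the highest exercised and the lowest sedentary SAMP8 array. In Enpp5, by contrast, exercised replicate 3 was the lowest exercised array. What sets these arrays apart was not tested. The difference of Metrn from SAMR1 was -2.0 ± 0.48 (adjusted p = 0.0266). It was no longer called without any 1 of SAMR1 replicates 1, 2 and 4 or exercised replicates 1, 2 and 5 (adjusted p up to 0.0797), nor with the means of choroid plexus and of meningeal markers in the model (-1.13, adjusted p = 0.448).

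The other large decreases were in genes of varied function. The adhesion glycoprotein Emb differed by -1.50 ± 0.13, or -0.99 with its probes averaged, the matrix protein Thbs4, known for roles in synapse formation, by -1.35 ± 0.25, and Slc35f3, a thiamine transporter outside the symbol-matched list, by -1.29 ± 0.19. Thbs4 read 8.49, 8.54, 8.42, 7.65 and 8.48 in exercised SAMP8, 8.21, 9.04, 7.93, 9.07 and 7.65 in sedentary SAMP8, and 9.92, 9.64, 9.36, 9.69 and 9.73 in SAMR1, with replicate 4 the lowest exercised array. In the model with both neighbouring-tissue means it was not called (-1.22, adjusted p = 0.1). Uap1l1 differed by -1.23 ± 0.12, or -0.41 with its 2 probes averaged. The protocadherin Pcdh9 (-1.55 ± 0.18) and Plekha5 (-1.31 ± 0.20) rested on 1 probe choice. Pcdh9's 4 probes ran from -1.55 to 0.36 and averaged -0.16 (adjusted p = 0.461), and the 3 probes of Plekha5 ran from -1.31 to 0.43 and averaged -0.28 (adjusted p = 0.363).

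**Figure D2:**
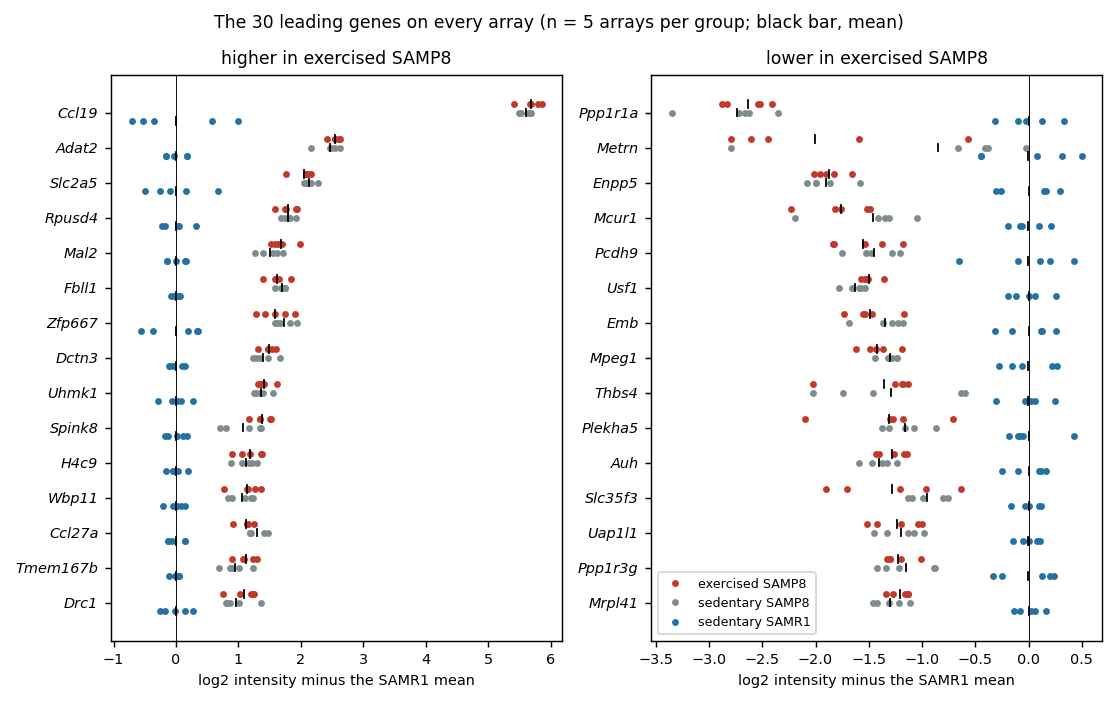
Log2 intensity on every array minus the SAMR1 mean of the gene, for the 15 genes highest and 15 lowest in exercised SAMP8 among called genes above the median level, with 5 arrays per group and black bars for means. Exercised (red) and sedentary (grey) SAMP8 arrays lie together away from SAMR1 (blue) for most genes, and Metrn is widely spread in both SAMP8 groups.

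For 28 of these 30 genes the 95% interval of the difference between exercised and sedentary SAMP8 held 0. The exceptions were Metrn and Spink8, and the 30 differences ran from -1.15 to 0.30. Of the 30 genes, 13 had several probes, which were all called in the same direction for 6 and included a probe of the opposite sign for 4. For 21 of the 30, at least 1 of the 5 tested genes next to it on each side of the chromosome order was also called, as it was for 25.7% of all tested genes with a known position. Outside that list, and named after their values were seen, the largest decreases were in 3 genes of low mean level. Lefty1, a secreted inhibitor of Nodal signalling, read 5.84, 5.36, 5.50, 5.71 and 5.29 in exercised SAMP8 against 10.20, 9.72, 9.81, 10.18 and 10.64 in SAMR1 (-4.57 ± 0.16, adjusted p = 2.53e-11). The exercised values lay at or near the floor of 5.29, so the size depends on that floor. Gdpd5, a glycerophosphodiester phosphodiesterase, differed by -3.20 ± 0.10, and the transcription regulator Prdm16 by -3.17 ± 0.16, with sedentary SAMP8 at -3.19 and -3.21 from SAMR1.

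The 52 families described next hold 2697 measured genes. Called genes made up more than 3.6% of the members in 35 of them, and 10 had none. The lists were written with earlier results of these data known, so shares above 3.6% are a description and not a test. In small families a single called gene passes that share, and 10 families had exactly 1.

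**Figure D3:**
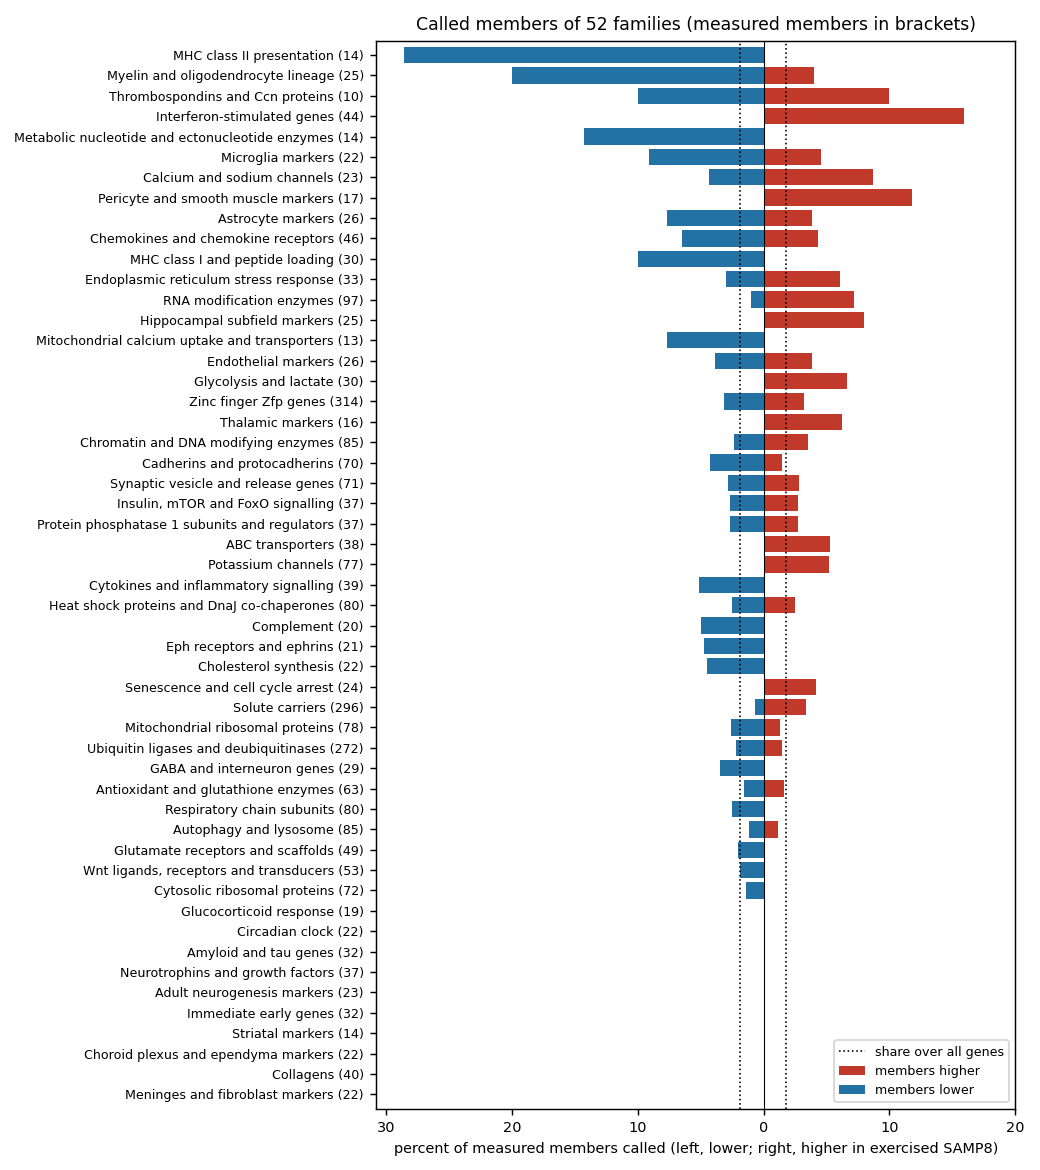
Percent of measured members called lower (blue, to the left) and higher (red, to the right) in exercised SAMP8 against SAMR1, for 52 families with the number of measured members in brackets. Dotted lines mark the shares over all genes, 1.85% lower and 1.75% higher, and class II presentation has the largest share, 28.6%, all lower.

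Some genes of class II antigen presentation stayed lower than in SAMR1 after training. Of 14 measured members 4 were lower (28.6%), 10 did not pass, and the median difference was -0.17. In sedentary SAMP8 3 were lower than in SAMR1 and the median was -0.09. The chains of H2-DM, the chaperone that loads peptide onto class II molecules, were all 3 among them. H2-DMb1 read 6.52, 6.40, 6.94, 6.71 and 7.48 in exercised SAMP8, 6.99, 7.05, 7.38, 6.63 and 6.77 in sedentary SAMP8, and 7.91, 7.57, 7.89, 7.90 and 7.51 in SAMR1 (-0.95 ± 0.18, adjusted p = 0.00596). H2-DMb2 differed by -0.85 ± 0.15 (adjusted p = 0.0025) and H2-DMa by -0.42 ± 0.10 (adjusted p = 0.0328). Both beta chain genes were called under every alternative run that included them, except the replicate block over the compared groups. H2-Ab1, a beta chain of the presenting molecule itself, differed by -0.57 ± 0.15 (adjusted p = 0.0457) and by -0.17 in sedentary SAMP8 (adjusted p = 0.789). Of its 13 probes, which ran from -0.62 to 0.04, 3 were called, and the call was lost without any 1 of 10 arrays (adjusted p up to 0.113), namely SAMR1 replicates 1, 3 and 4, sedentary SAMP8 replicates 1, 2 and 4 and exercised replicates 1 to 4. H2-DMa was not called without SAMR1 replicate 1, 3 or 4 or exercised replicate 3, 4 or 5 (adjusted p up to 0.0845). The family's count was 2 without exercised replicate 3 or 4 or SAMR1 replicate 1, 3 or 4. The invariant chain Cd74 (-0.11 ± 0.21), the alpha chain H2-Aa (-0.28 ± 0.19), H2-Eb1 (-0.16 ± 0.11) and the class II transactivator Ciita (-0.15 ± 0.17) did not pass.

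Class I genes followed on a smaller scale. Of 30 measured members 3 were lower (10%) and none was higher, with a median of -0.13, while sedentary SAMP8 had 2 lower and a median of 0.0. H2-Q4, a nonclassical class I gene, averaged 9.62 ± 0.25 in exercised SAMP8, 9.77 ± 0.19 in sedentary SAMP8 and 10.66 ± 0.18 in SAMR1 (SD, n = 5 each), with no overlap of exercised SAMP8 and SAMR1 (-1.03 ± 0.13, adjusted p = 7.99e-05). H2-T3 differed by -0.65 ± 0.10, with 3 of 5 exercised arrays at the floor, and by -0.06 (adjusted p = 0.249) with the floor at the 20th percentile. H2-T22 differed by -0.37 ± 0.09 (adjusted p = 0.0234) and was not called when exercised replicate 3 or SAMR1 replicate 3, 4 or 5 was dropped (adjusted p up to 0.0649), nor with its probes averaged (-0.26, adjusted p = 0.149). The count of the family was 5 without exercised replicate 5. The class I and class II genes belong to families of near-identical members, and whether each probe reads 1 member alone was not tested.

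Among immune cell genes the direction was mixed. Of 22 microglial markers 3 were called (13.6%), with a family median of -0.05. Slc2a5 was higher, as given above. Mpeg1, a pore-forming protein of macrophages, was lower (-1.42 ± 0.11, or -0.94 with its 2 probes averaged). It read 8.46, 8.52, 8.40, 8.27 and 8.70 in exercised SAMP8, 8.61, 8.45, 8.65, 8.65 and 8.57 in sedentary SAMP8, and 10.11, 9.61, 9.83, 9.73 and 10.16 in SAMR1. Laptm5, a lysosomal protein of blood-derived cells, was lower (-0.93 ± 0.16, adjusted p = 0.00221) and is described further below. The microglial array mean ran from 9.07 to 9.16 in exercised SAMP8 and from 8.98 to 9.27 in SAMR1. Of 46 chemokines and their receptors 5 were called (10.9%): Ccl19 and Ccl27a were higher, while Ccl6 (-0.76 ± 0.12), Ccl9 (-0.47 ± 0.10) and Ccl17 (-0.75 ± 0.16) were lower, and all 5 stayed called without any 1 array. Ccl6 and Ccl9 encode macrophage-attracting chemokines, and Ccl17 one that acts through CCR4. Fcgr2b, the inhibitory Fc receptor and a neighbour of Uhmk1, was lower (-0.71 ± 0.12) with 12 of 12 probes called. Of 20 complement genes C4b alone was called, reading 9.71, 9.98, 10.05, 9.99 and 10.04 in exercised SAMP8, 10.31, 10.16, 10.61, 10.36 and 10.04 in sedentary SAMP8, and 11.18, 11.03, 11.10, 10.99 and 11.26 in SAMR1 (-1.16 ± 0.11, adjusted p = 2.75e-06). C4b was called under every alternative run, and as 1 gene it made up 5% of its list.

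Called interferon-stimulated genes were all higher. Higher levels were found for 7 of 44 genes (15.9%), lower ones for none, with a median of 0.12. Sedentary SAMP8 had 11 members higher than SAMR1 and a median of 0.25. The called members were Eif2ak2, the kinase PKR that halts translation on double-stranded RNA, Ifih1, a sensor of the same RNA, the oligoadenylate synthetase genes Oas1a and Oas2 with their relative Oasl2, the nucleotide kinase Cmpk2 and Ifi27l2a. Promoter windows of 3 of them are shown because they hold the pair of GAAA repeats that interferon response factors are known to bind. The sequences are RefSeq's for assembly GRCm38.p6, from 250 bases before to 50 after the gene start, and capitals mark GAAANNGAAA, searched on both strands. They are Eif2ak2 at chr17:78882523-78882822, Ifih1 at chr2:62646206-62646505 and Oas1a at chr5:120907476-120907775, all on the minus strand and written 5′ to 3′, and the capitals of Oas1a cover 2 overlapping matches.
Eif2ak2: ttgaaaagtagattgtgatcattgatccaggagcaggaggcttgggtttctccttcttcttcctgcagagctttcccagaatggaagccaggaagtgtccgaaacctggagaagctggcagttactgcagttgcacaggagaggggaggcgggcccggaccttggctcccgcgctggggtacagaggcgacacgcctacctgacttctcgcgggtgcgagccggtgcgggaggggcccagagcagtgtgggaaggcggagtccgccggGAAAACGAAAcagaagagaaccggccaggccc
Ifih1: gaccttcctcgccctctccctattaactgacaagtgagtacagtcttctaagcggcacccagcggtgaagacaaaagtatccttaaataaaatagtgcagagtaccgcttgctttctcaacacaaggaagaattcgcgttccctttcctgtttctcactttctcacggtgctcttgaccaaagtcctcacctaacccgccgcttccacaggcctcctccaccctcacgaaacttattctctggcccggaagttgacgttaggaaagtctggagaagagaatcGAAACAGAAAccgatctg
Oas1a: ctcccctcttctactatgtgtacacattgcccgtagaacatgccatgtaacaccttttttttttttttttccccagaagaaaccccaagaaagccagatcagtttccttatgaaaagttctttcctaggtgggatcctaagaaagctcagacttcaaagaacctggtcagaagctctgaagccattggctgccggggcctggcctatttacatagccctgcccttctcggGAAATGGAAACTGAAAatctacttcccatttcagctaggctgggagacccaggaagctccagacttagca
Cmpk2 and Oasl2 had a window without this match. Of all 32 listed interferon-stimulated genes with a window 19 held the match, as did 3 of the 5 called ones, while 1131 of 32851 windows in the table did (3.44%). A match is a description of the letters and not a measured site.

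Eif2ak2 read 7.32, 6.96, 7.11, 7.20 and 7.31 in exercised SAMP8, 7.53, 7.17, 7.30, 6.95 and 7.25 in sedentary SAMP8, and 6.58, 6.58, 6.54, 6.54 and 6.13 in SAMR1 (0.71 ± 0.12, adjusted p = 0.0015). Ifi27l2a had the largest difference of the family, with 7.70 to 8.72 in exercised SAMP8, 7.74 to 9.37 in sedentary SAMP8 and 6.43 to 7.08 in SAMR1 (1.25 ± 0.27, adjusted p = 0.0134). Exercised replicate 1 was its highest exercised array, and in both genes all SAMP8 arrays, trained or not, lay above SAMR1. The differences of the others were 0.72 ± 0.19 for Oasl2, 0.68 ± 0.15 for Oas2, 0.54 ± 0.13 for Cmpk2, 0.53 ± 0.12 for Oas1a and 0.44 ± 0.10 for Ifih1. Usp18 (0.70 ± 0.22), Rtp4 (0.45 ± 0.16) and Parp14 (0.31 ± 0.13) did not pass against SAMR1 after training (adjusted p = 0.11, 0.148 and 0.218). Their differences from sedentary SAMP8 were -0.25 ± 0.22, -0.21 ± 0.16 and -0.38 ± 0.13, none of them called. Over all 44 members, exercised minus sedentary SAMP8 had a median of -0.12, with 36 negative and 8 positive. With probes averaged Oas2 (0.35, adjusted p = 0.0557), Cmpk2 (0.35, adjusted p = 0.0623) and Ifih1 (0.27, adjusted p = 0.153) were not called, and with the floor at the 20th percentile Oas2 was at 0.17. Oasl2 lost its call without any 1 of 10 arrays. The family's count was 3 without SAMR1 replicate 1 and 3 without SAMR1 replicate 2. Once the means of the choroid plexus and meningeal lists entered the model, Eif2ak2 was the 1 member still called (0.77, adjusted p = 0.01).

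Some genes of myelin and the oligodendrocyte lineage were lower in exercised SAMP8 than in SAMR1. Of 25 measured members 5 were lower, 1 was higher (24% called) and 19 did not pass, and the median was -0.25. In sedentary SAMP8 the median was -0.10, with 2 members called higher and none called lower. Mbp, a main structural protein of compact myelin, read 15.45, 15.53, 15.67, 15.20 and 15.52 in exercised SAMP8, 15.73, 15.92, 15.59, 16.00 and 15.44 in sedentary SAMP8, and 16.00, 15.99, 15.81, 15.98 and 16.00 in SAMR1. Since the brightest value deposited has a log2 of 16.00, the SAMR1 level of this probe lay at or near the top of the scale. Its fitted difference of -0.48 ± 0.11 (adjusted p = 0.0192) is therefore a minimum in size. The other 11 Mbp probes were all called, between -1.09 and -0.54. Mog, a protein of the outer myelin surface, read 7.84, 8.05, 8.09, 7.42 and 7.84 in exercised SAMP8, 8.35, 7.95, 7.89, 8.01 and 7.65 in sedentary SAMP8, and 8.85, 8.35, 8.23, 8.47 and 8.64 in SAMR1 (-0.66 ± 0.15, or -0.43 with its probes averaged). Aspa, which breaks down N-acetylaspartate for lipid synthesis (-0.74 ± 0.16), Opalin (-0.62 ± 0.14) and the cytoskeletal Ermn (-0.42 ± 0.11) were also lower. Sedentary SAMP8 was below SAMR1 in the same 5 genes, though not called: Aspa -0.55, Mog -0.54, Opalin -0.45, Ermn -0.31 and Mbp -0.22. Olig1, a transcription factor of the lineage, was higher (0.48 ± 0.11), and it differed by the same 0.48 in sedentary SAMP8.

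This family depended on single arrays and on the model. Its count was 1 without SAMR1 replicate 1, and 4 without SAMR1 replicate 2 or exercised replicate 2 or 4. Ermn lost its call without any 1 of 11 arrays. Exercised replicate 4 had the lowest family mean, 9.64 against 9.88 to 10.07 on the other exercised arrays and 9.94 to 10.24 in SAMR1. In the model with both neighbouring-tissue means none of the 6 was called. The exercised minus sedentary SAMP8 difference of Mbp was -0.26 ± 0.11 and that of the family's median member -0.13, with no member called. For Aspa, Opalin, Mog and Ermn it was -0.19, -0.17, -0.12 and -0.11.

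**Figure D4:**
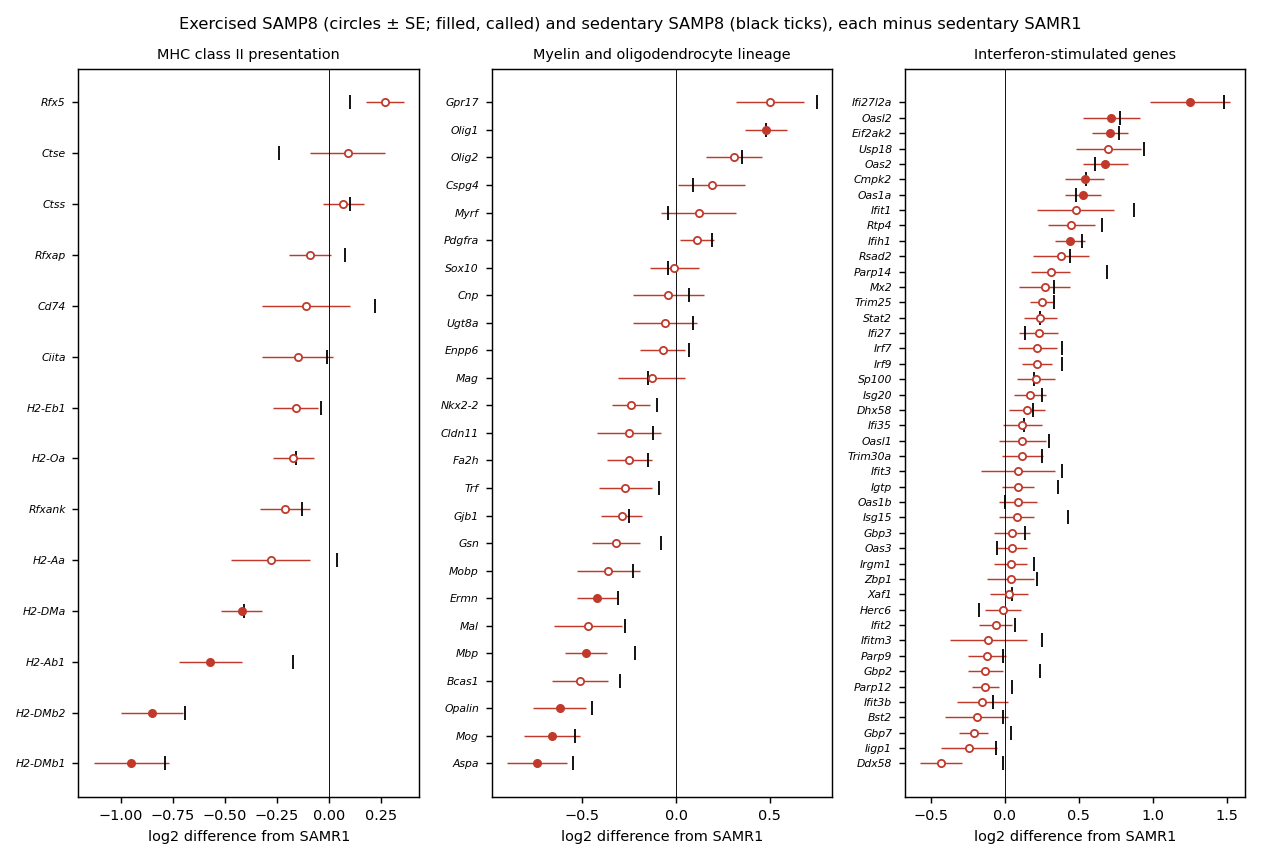
Difference from sedentary SAMR1 in log2 intensity for every measured member of 3 families, with circles and bars for exercised SAMP8 and its SE (filled where called) and black ticks for sedentary SAMP8. The 4 called class II genes and 5 of 6 called myelin genes lie below 0, and all 7 called interferon-stimulated genes lie above it.

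Some markers of vessel walls were higher. Of 17 markers of pericytes and smooth muscle 2 were higher (11.8%), 15 members were positive and the median was 0.34. In sedentary SAMP8 6 were higher and the median was 0.43. Pdgfrb, the growth factor receptor of pericytes, read 10.06, 10.34, 10.08, 9.83 and 10.05 in exercised SAMP8, 10.06, 9.72, 10.05, 10.21 and 9.91 in sedentary SAMP8, and 8.98, 9.02, 9.30, 9.12 and 9.44 in SAMR1 (0.90 ± 0.12, adjusted p = 0.00014). Rgs5, a G-protein regulator of the same cells, differed by 0.74 ± 0.12 (adjusted p = 0.0018). Both stayed called without any 1 array and in the model with both neighbouring-tissue means (0.79 and 0.69), Rgs5 losing its call under the replicate block alone. The family's count was 5 without SAMR1 replicate 3 and 4 without exercised replicate 4. Of 26 endothelial markers 2 were called (7.69%). The drug efflux pump Abcb1a was higher (1.24 ± 0.07). Its SAMR1 values were at the floor on 4 arrays, and the difference was 0.58 with the higher floor. The thyroxine transporter Slco1c1 was lower (-0.83 ± 0.14).

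Markers of tissue next to the hippocampus moved beside these results. The array means of 22 choroid plexus and ependyma markers ran from 7.15 to 9.33 in exercised SAMP8 and from 8.14 to 9.49 in SAMR1, so the groups overlapped. The median difference was -0.72 with 20 of 22 members negative and none called, or 1 called without exercised replicate 5. Sedentary SAMP8 differed from SAMR1 by a median of -0.60 in this list. Means of 22 meningeal and fibroblast markers were 9.12, 9.27, 8.92, 8.94 and 9.75 in exercised SAMP8 and 8.63, 8.65, 9.41, 9.26 and 8.44 in SAMR1, with a median of 0.36 and none called, though 2 were without SAMR1 replicate 3 and 1 without SAMR1 replicate 4. Sedentary SAMP8 means of the meningeal list ran from 9.26 to 10.05, with a median difference of 0.75 from SAMR1 and 6 markers higher. Exercised minus sedentary SAMP8 had a median of -0.41 there, with 20 of 22 markers negative and none called. No member of either list was at the floor on all arrays. In a model that also held both of these means, 262 genes were called in place of 590. Beyond that fit, their part in the results on vessel, interferon and myelin genes was not tested.

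**Figure D5:**
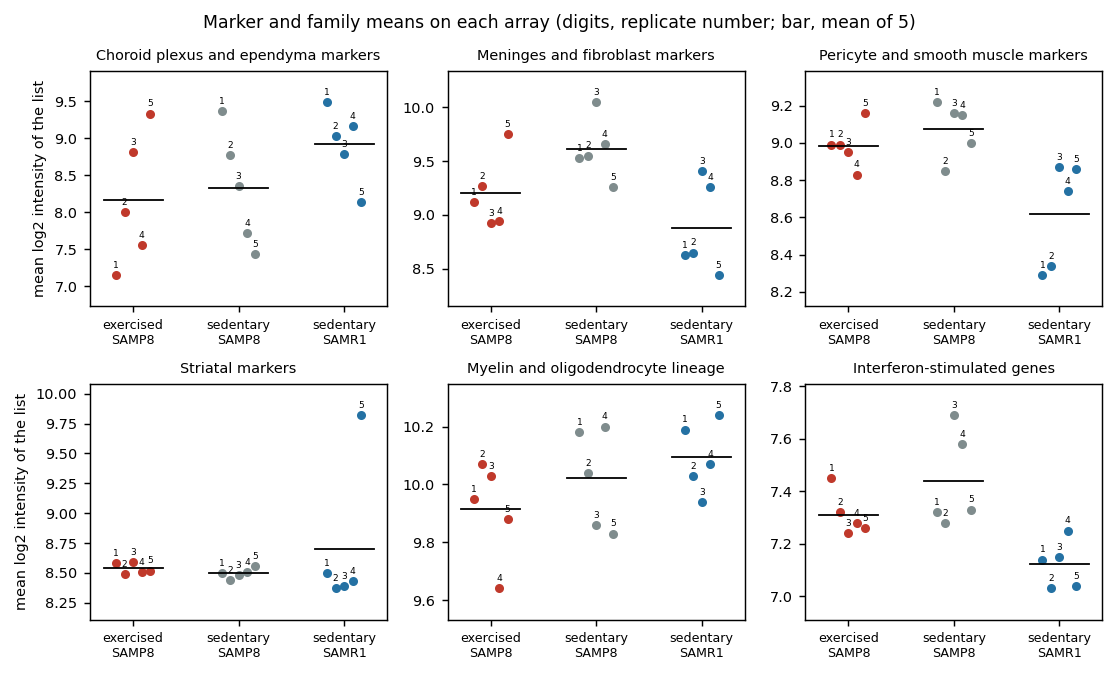
Mean log2 intensity of each list on every array, by group, with replicate numbers beside the points and bars for the mean of 5 arrays. Choroid plexus means run from 7.15 to 9.33 in exercised SAMP8 and from 8.14 to 9.49 in SAMR1, and SAMR1 replicate 5 stands apart at 9.82 in the striatal list.

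Of 26 astrocyte markers 3 were called (11.5%). Serpina3n, a protease inhibitor raised in reactive astrocytes, read 10.70, 10.75, 11.04, 11.38 and 10.81 in exercised SAMP8, 10.35, 10.66, 10.65, 10.42 and 10.92 in sedentary SAMP8, and 9.69, 10.14, 10.04, 9.94 and 9.71 in SAMR1 (1.03 ± 0.14, adjusted p = 0.000237). The neurotensin receptor Ntsr2 was lower (-0.73 ± 0.09), as was Slco1c1, which also counts among endothelial genes. Serpina3n and Ntsr2 were called under every alternative run.

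In the neuronal families the medians ran from 0.03 to 0.06, while the called share ran from 2.04% to 13%. Of 71 genes of synaptic vesicles and release 4 were called (5.63%): the vesicle protein Syn2 (0.56 ± 0.09) and Snap47 (0.34 ± 0.09) were higher, and Syngr2 (-0.54 ± 0.12) and the endosomal Vamp8 (-0.79 ± 0.20) were lower. Among 49 glutamate receptors and scaffolds Homer2 was lower (-0.39 ± 0.10), and among 29 genes of GABA signalling and interneurons the extrasynaptic receptor subunit Gabra5 was lower (-0.59 ± 0.16). The medians of these families were 0.05 and 0.06. Of 77 potassium channel genes 4 were called (5.19%) and all were higher: Kcng2 (0.64 ± 0.10), Kcns3 (0.53 ± 0.12), Kcnk1 (0.48 ± 0.10) and Kcnj11, a subunit of the ATP-sensitive channel (0.46 ± 0.09). Of 23 calcium and sodium channel genes 3 were called (13%), or 1 without SAMR1 replicate 1: the T-type channel Cacna1g (0.84 ± 0.16) and the L-type Cacna1d (0.40 ± 0.09) were higher, and Scn2a was lower (-0.48 ± 0.12). Gabra5 lost its call without any 1 of 12 arrays, Scn2a without any 1 of 10, Homer2 without any 1 of 8, Vamp8 without any 1 of 9 and Snap47 without any 1 of 13 (adjusted p up to 0.121, 0.101, 0.087, 0.103 and 0.128). With probes averaged Cacna1d was not called (0.22, adjusted p = 0.224). Gabra5 (probes at -0.59 and -0.17) and Homer2 (-0.39 and -0.21) were not called then either, and 3 of the 4 synaptic calls were kept. Tested probe by probe, neither Snap47 probe was called (0.14 and 0.34). The synaptic count was 2 without exercised replicate 1, 2 or 4, sedentary SAMP8 replicate 2 or SAMR1 replicate 2 or 4. The glutamate count was 3 without exercised replicate 3, and 2 without sedentary SAMP8 replicate 4 or 5.

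Zinc finger genes with Zfp symbols, mostly DNA-binding regulators, held 20 called members of 314 (6.37%), 10 higher and 10 lower. The largest was Zfp551, which read 6.69, 7.09, 6.73, 6.97 and 6.93 in exercised SAMP8, 6.98, 7.27, 7.06, 6.31 and 6.99 in sedentary SAMP8, and 9.83, 9.95, 9.93, 9.52 and 9.92 in SAMR1 (-2.95 ± 0.15, adjusted p = 1.88e-09). Zfp606 was higher (2.22 ± 0.13, or 1.09 with its 2 probes averaged), as were Zfp429 (1.59 ± 0.09) and Zfp667 (1.60 ± 0.17, or 0.86 averaged). Zfp583 (0.38 ± 0.09) and Zfp78 (0.45 ± 0.11), both near Zfp667 in the gene order, were higher as well, Zfp78 not being called with its probes averaged (0.33, adjusted p = 0.142). Zfp583 lost its call without exercised replicate 1 or 4 or SAMR1 replicate 1 or 5, and Zfp78 without exercised replicate 4. Zfp599 (-1.0 ± 0.12), Zfp367 (-0.94 ± 0.15) and Zfp324 (-0.90 ± 0.10) were lower, with probe averages of -0.60, -0.34 and -0.50. The family's count was 13 without SAMR1 replicate 1. Chromatin enzymes, 85 in number, had 5 calls (5.88%). The DNA glycosylase Mbd4 (1.04 ± 0.11) and the methyltransferases Setd6 (0.50 ± 0.10) and Ehmt2 (0.47 ± 0.11) were higher. The acetyltransferase Kat6a (-1.24 ± 0.25) and the methyltransferase Kmt5b (-1.04 ± 0.20) were lower. Kat6a read 6.67, 6.12, 7.43, 6.48 and 5.60 in exercised SAMP8, 7.20, 7.34, 6.59, 6.83 and 7.10 in sedentary SAMP8, and 7.90, 7.70, 7.59, 7.56 and 7.75 in SAMR1, with exercised replicate 5 the lowest and replicate 3 near the SAMR1 arrays. Kat6a and Kmt5b each had a second probe near 0, at 0.01 and -0.04, and averaged -0.61 and -0.54.

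Ubiquitin ligases and deubiquitinases were called at about the background share, 10 of 272 (3.68%), with 4 higher and 6 lower. Trim12a, of a cluster of antiviral Trim genes, read 8.17, 8.15, 8.03, 7.86 and 8.25 in exercised SAMP8, 8.17, 8.15, 8.50, 8.28 and 8.15 in sedentary SAMP8, and 5.88, 5.34, 5.31, 5.29 and 5.72 in SAMR1 (2.58 ± 0.12, adjusted p = 1.14e-09), and both its probes were called. Its SAMR1 values lay at or near the floor, so the size depends on it: the difference was 2.10 with the floor at the 20th percentile. Trim34a was higher by its brightest probe (0.85 ± 0.16), at 0.37 (adjusted p = 0.124) with the higher floor. Its other probes lay at -0.03 and 0.07, neither of them called. Uchl3 (-0.98 ± 0.08) and Uchl4 (-0.97 ± 0.16), a pair of closely related hydrolases, were lower and so was Fbxo32, the muscle atrophy ligase atrogin-1 (-0.54 ± 0.08).

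Solute carriers were likewise near the background, with 12 of 296 called (4.05%), 10 higher and 2 lower. Besides Slc2a5 they included Slc16a7, a transporter of lactate and pyruvate (0.60 ± 0.09), and the bicarbonate transporter Slc4a10 (0.51 ± 0.08), both higher. The lower ones were Slco1c1 and the mitochondrial Slc25a41 (-0.55 ± 0.11). Slc16a7 had a second probe at -0.52 and averaged 0.04 (adjusted p = 0.9). The family's count was 7 without SAMR1 replicate 1 or 4 or exercised replicate 4, and 8 without exercised replicate 3. Of 33 genes of the endoplasmic reticulum stress response 3 were called (9.09%). Vcp was higher (0.64 ± 0.08, or 0.39 with its probes averaged). Sel1l was higher by its brightest probe (0.40 ± 0.09), but its 3 probes ran from -0.20 to 0.40 and averaged 0.07 (adjusted p = 0.792), and the call was lost without exercised replicate 1, 2 or 3 or SAMR1 replicate 1. Eif2ak3, the stress kinase PERK, was lower by its brighter probe (-0.49 ± 0.11), but its other probe was at 0.72 and the average was 0.11 (adjusted p = 0.629). Of 37 genes of insulin and mTOR signalling 2 were called (5.41%). Eif4ebp1, a repressor of translation, was lower (-0.81 ± 0.10, or -0.52 averaged). Foxo6 was higher (0.50 ± 0.12), losing its call without any 1 of 6 arrays. Cdkn2d, a cell cycle inhibitor, was the 1 called gene of 24 in the senescence list (0.61 ± 0.09), a share of 4.17%. The lysosomal sialidase Neu1 was higher (0.79 ± 0.09, or 0.38 averaged), in a list with 2.35% called.

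Smaller groups held 1 or a few calls each, beside a share of 3.6% over all genes. Called members made up 5.13% of cytokine genes, 5% of heat shock proteins, 5.71% of cadherins and 5.26% of ABC transporters. The share was 3.17% for antioxidant enzymes, 4.55% for cholesterol synthesis and 1.89% for Wnt genes. It was 8% for hippocampal subfield markers and 20% for the 10 thrombospondins and Ccn proteins. Of 39 cytokine and inflammatory signalling genes the alarmin Il33 (-0.44 ± 0.12) and the macrophage growth factor Csf1 (-0.33 ± 0.09) were lower, each losing its call without any 1 of 10 arrays. Of 80 heat shock proteins and co-chaperones Hspbp1 (0.54 ± 0.09) and Dnajb14 (0.86 ± 0.19) were higher, and the mitochondrial chaperone Hspa9 was lower (-0.33 ± 0.08). Hspbp1 averaged 0.29 over its probes. Dnajc5, a synaptic co-chaperone, was called lower by its brightest probe (-0.38 ± 0.10), but another of its 3 probes was called at 0.43 and they averaged -0.09 (adjusted p = 0.682), so it has no settled direction here. The count of 4 was 2 without exercised replicate 3 or any 1 of SAMR1 replicates 1 to 4. Of 70 cadherins and protocadherins Celsr2 was higher (0.47 ± 0.11, or 0.18 averaged, adjusted p = 0.603), and Cdh6 (-0.58 ± 0.12, or -0.38 with the higher floor), Pcdhb2 (-0.62 ± 0.14) and Pcdh9 were lower. Their count was 2 without SAMR1 replicate 1. Besides Thbs4, the matricellular Ccn2 (0.83 ± 0.22) was the 1 called gene among 10 thrombospondins and Ccn proteins, and it was higher but lost its call without any 1 of 13 arrays. Among 63 antioxidant and glutathione enzymes Gclm, of glutathione synthesis, was higher (0.48 ± 0.12) and Gstt2 was lower (-0.37 ± 0.09), and both calls were lost without exercised replicate 2 or 4 or SAMR1 replicate 1 or 3. The cholesterol synthesis enzyme Dhcr7 (-0.37 ± 0.08) and the Wnt receptor Fzd2 (-0.44 ± 0.10) were the called genes of families of 22 and 53, both lower and neither called with probes averaged (-0.26 and -0.29). C1ql2, a dentate gyrus marker, was higher (0.70 ± 0.18) but lost its call without any 1 of 7 arrays. Higher too was Abcb1b, a second drug efflux pump (0.62 ± 0.14, with probes from -0.27 to 0.62 that averaged 0.21, adjusted p = 0.319). In the model with both neighbouring-tissue means Hspbp1, Dnajb14 and Pcdh9 kept their calls and the other genes named here did not.

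Families often studied in training held no call against SAMR1, a comparison that spans both line and training. None of 37 neurotrophins and growth factors passed, with a median of 0.03, but 2 did without SAMR1 replicate 5, the array that stood apart in striatal markers. Bdnf averaged 11.08 ± 0.47 in exercised SAMP8, 10.75 in sedentary SAMP8 and 10.88 ± 0.25 in SAMR1 (SD, n = 5). The exercised mean differed by 0.20 ± 0.21 from SAMR1 and by 0.34 ± 0.21 from sedentary SAMP8 (SE), neither called. None of 23 markers of adult neurogenesis, 32 immediate early genes, 22 clock genes, 19 glucocorticoid-responsive genes or 32 genes of amyloid and tau was called, and the medians ran from 0.05 to 0.18. Fos differed by 0.73 ± 0.42 and Arc by 0.34 ± 0.41, with SDs in SAMR1 of 1.11 and 1.14. A single neurogenesis marker was called without exercised replicate 2, and 1 glucocorticoid-responsive gene without exercised replicate 5. Among immediate early genes 1 was called when sedentary SAMP8 replicate 3 or 4 or SAMR1 replicate 5 was left out. The 40 collagens had no call either, but 4 without SAMR1 replicate 3, 3 without replicate 4 and 1 without replicate 5. Among 72 cytosolic ribosomal proteins Rps9 alone was called (1.39%) and was lower (-0.29 ± 0.07). Its call was lost without any 1 of 12 arrays (adjusted p up to 0.102), and the family median was -0.13.

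Some called genes stood apart from SAMR1 in exercised SAMP8 while sedentary SAMP8 lay near SAMR1. They were picked by the lowest p between exercised and sedentary SAMP8, so the values are a description, and none was called in that contrast. Laptm5 read 8.28, 7.88, 8.70, 8.39 and 7.85 in exercised SAMP8, 8.98, 9.14, 8.39, 9.04 and 8.98 in sedentary SAMP8, and 9.24, 9.04, 9.06, 9.22 and 9.18 in SAMR1. Sedentary replicate 3 was the 1 sedentary SAMP8 array among the exercised ones. Its differences were -0.93 ± 0.16 from SAMR1 and -0.69 ± 0.16 from sedentary SAMP8. Efnb3, an ephrin ligand of axon guidance, read 12.47, 12.52, 12.43, 12.40 and 12.55 in exercised SAMP8, 12.80, 13.12, 12.72, 13.02 and 12.90 in sedentary SAMP8, and 13.10, 13.03, 12.82, 13.01 and 12.81 in SAMR1 (-0.48 ± 0.09 from SAMR1). All exercised arrays lay below all others. The kinase Map3k2 (-0.45 ± 0.10 from SAMR1, -0.46 ± 0.10 from sedentary SAMP8) and Tnrc18 (-0.63 ± 0.14 and -0.53 ± 0.14) were lower, and Ankmy2 was higher (0.30 ± 0.07 and 0.28 ± 0.07). Map3k2 was at -0.20 (adjusted p = 0.223) against SAMR1 with its probes averaged, and Ankmy2 lost its call without exercised replicate 3 or 5 or SAMR1 replicate 2 or 3. In the model with both neighbouring-tissue means Laptm5 (-0.72, adjusted p = 0.0581) and Efnb3 (-0.43, adjusted p = 0.107) were no longer called against SAMR1.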

How the data were processed

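Whole-hippocampus RNA was labelled with Cy3 and hybridised to 1-colour Agilent arrays, 15 in all, per the labels. The table as deposited holds linear intensity between 4.02 and 65480, and limma is named in the submitters' processing notes, with no version. Of 45220 rows 10741 had no values. The background step and that filter: not given in the sources used here. Medians of 207.75 to 208.67 and nearly identical sorted columns were read as between-array quantile normalization.

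Features were paired with symbols through the platform annotation: 27968 of 34479 had 1, 38 several, and 6473 were not listed. The probe with the highest mean stood for each of 16401 genes (6970 had several). Values under the 5th percentile (39.17) were raised to it before log2. limma 3.58.1 in R 4.3.3 (lmFit, eBayes, two-sided) fitted 3 group means over 15 arrays, with Benjamini-Hochberg adjustment over 16401 genes, and the fit was tested on simulated data. RefSeq's GRCm38.p6 table gave the order of 16375 genes. Number of arrays limits the precision.

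Named genes were up to 15 in each direction with the largest called difference above the median level and no overlap of groups (predicted genes passed over), up to 4 called members per family by p (every called member allowed), called neighbours, and up to 5 called genes with the lowest p for exercised minus sedentary SAMP8. Members and lists were chosen with earlier results of these data known. Uncalled members, Lefty1, Gdpd5 and Prdm16 were named after their values were seen. Deviations of same-numbered arrays correlated at r = 0.01, 0.09, 0.12, 0.37 and 0.04 between exercised SAMP8 and SAMR1, which did not meet the rule for pairing (every r over 0.1), and at 0.27, 0.23, 0.38, 0.52 and 0.42 between sedentary SAMP8 and SAMR1, which did. The 27 alternatives changed the floor, probe choice, scaling, samples, block, covariates, prior and weights, or left out 1 array.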

Additional observations from a re-analysis of the deposited data

Results flagged for a closer look

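In 22 of 236 groups of 5 arrays tested for the named genes, the highest or lowest array lay far from the nearest of the others relative to the range of its group, which chance gives in about 1 group of 20. The values are log2 intensities. For Abcb1a 4 of the 5 SAMR1 values lay at the floor, and for H2-T3 3 of the 5 exercised values. The floor shaped both flags, so that chance rate does not hold for them. On the exercised SAMP8 array of replicate 1 this held for C4b (lowest, 9.71, nearest 9.98), Gstt2 (highest, 6.85, nearest 6.66) and Ntsr2 (highest, 12.58, nearest 12.31). On the exercised SAMP8 array of replicate 2 this held for H2-T3 (highest, 5.78, nearest 5.36) and Olig1 (highest, 11.63, nearest 11.36). On the exercised SAMP8 array of replicate 3 this held for H2-T22 (lowest, 8.28, nearest 8.37). On the exercised SAMP8 array of replicate 4 this held for Slc2a5 (lowest, 9.32, nearest 9.63), Thbs4 (lowest, 7.65, nearest 8.42) and Uchl3 (highest, 10.46, nearest 10.22). On the exercised SAMP8 array of replicate 5 this held for Usf1 (highest, 8.64, nearest 8.49) and Zfp606 (highest, 9.60, nearest 9.14). On the sedentary SAMR1 array of replicate 1 this held for Ankmy2 (highest, 10.01, nearest 9.94), Pcdhb2 (highest, 7.81, nearest 7.50) and Vamp8 (highest, 9.57, nearest 8.96). On the sedentary SAMR1 array of replicate 2 this held for Eif4ebp1 (lowest, 8.39, nearest 8.70). On the sedentary SAMR1 array of replicate 4 this held for Abcb1a (highest, 5.53, nearest 5.29), Homer2 (lowest, 11.61, nearest 11.68) and Hspbp1 (highest, 11.23, nearest 11.11). On the sedentary SAMR1 array of replicate 5 this held for Eif2ak2 (lowest, 6.13, nearest 6.54), Plekha5 (highest, 12.06, nearest 11.58), Slc4a10 (lowest, 11.18, nearest 11.27) and Syngr2 (lowest, 8.12, nearest 8.38).

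A signal was also found among 6511 array features without a single gene symbol, which entered no gene count. Tested apart, 115 of them (1.77%) differed between exercised SAMP8 and SAMR1, 61 higher and 54 lower in exercised SAMP8, and the largest log2 difference was 7.72 for feature 42878.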

How the results depend on the processing

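Among the 27 alternatives, the 590 calls in exercised SAMP8 became 323 with a replicate block over the compared groups. They became 262 with the means of choroid plexus and of meningeal markers in the model (covariates), and 406 to 598 when 1 array was left out. For sedentary SAMP8 minus SAMR1 the 431 calls became 648, 147 and 336 to 472 under the same settings. Apart from these alternatives, each of 27968 probes was tested alone, which called 1056 probes in exercised SAMP8 and 685 in sedentary SAMP8. Exercised minus sedentary SAMP8 had 0 calls, and 0 to 1 when 1 array was left out (Camk1d, -0.60 ± 0.07, adjusted p = 0.00672, without exercised replicate 3). The 115 features without a single symbol became 70 with that block, 60 with the covariates and 87 to 123 when 1 array was left out. The replicate numbers did not pair exercised SAMP8 with SAMR1, and a block over all arrays called 726 genes. Only replicates 3 and 4 correlated best with their own number, a hint from the data. The share of higher calls stayed between 44.9% and 51.5%. Averaging all probes reversed Eif2ak3 (0.11), Mrpl35 (1.33) and Rpp40 (-0.60), whose probes disagree in sign. Of the 30 leading genes 26 kept their calls under every alternative that could be run, and Metrn, Pcdh9, Thbs4 and Plekha5 did not. Of 141 called family genes, 96 kept their call without SAMR1 replicate 1 and 65 with the covariates, which widened the median standard error to 0.14. Other causes were not tested. With 5 arrays per group, small differences and genes near the floor were not resolved.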
